A study of Mus musculus with 23 samples.

Results

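Complement genes were followed in libraries labelled as mouse group 2 innate lymphoid cells (ILC2s), tissue immune cells of the type 2 response. The cells came from culture or were recovered after transfer. The genes were chosen by name: C1qa, C1qb and C1qc, C3, C4b, Cfb, Cfp, C3ar1 and C5ar1. Of these 9 genes, 8 had a row among the 19945 genes of the deposited table and were described here. C4b was not analysed here. All 8 were among the 15268 genes that passed the filter on low values (at least 10 normalized counts in at least 5 libraries).

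Complement is a cascade of blood and tissue proteins that tags targets for removal. C1q, built from the products of C1qa, C1qb and C1qc, recognises antibody, dying cells and, in brain, synapses, and starts the classical pathway. C3 is the protein at which all activation routes meet, factor B (Cfb) and properdin (Cfp) build and stabilise the alternative pathway convertase, and the receptors encoded by C3ar1 and C5ar1 bind the released C3a and C5a peptides. In the brain, microglia are the main known source of C1q, while neutrophils and monocytes are known for properdin and for the C5a receptor.

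The 4 groups were cells recovered from the brain on day 5 after middle cerebral artery occlusion (MCAO, a stroke model; 6 libraries), from the blood on day 5 (6 libraries), from the blood on day 1 (6 libraries), and cells taken straight from culture as a baseline (5 libraries, called base in the labels). All carried the genotype label B6.Cg-Tg(CAG-GFP)Smoc, and the protocol speaks of transgenic and wild-type male donors aged 8 to 10 weeks. Donors received IL-33 every 2 days for 7 days, and CD25-positive cells of bone marrow and spleen, depleted of cells with lineage markers (Ter119, CD45R/B220, CD3ε, Gr1 and CD11b), were cultured for 14 days in a medium with 4 cytokines (IL-7, IL-33, IL-2 and IL-15). CD45+Lin-ST2+KLRG1+CD127+ cells were then sorted and given intravenously 6 hours after MCAO. The labels give neither the sort used at recovery nor the number of animals behind a library, so p-values measure the spread between libraries, which may be partly technical.

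Recovered reads ran from 11.6 to 58.1 M (1e6 reads) a library, with 11.6 to 16.9 M in batch 1 and 27.8 to 58.1 M in batch 2, a split given by the labels and present in every group. Replicates 2 and 6 of blood day 1, replicate 2 of brain and replicate 5 of culture were treated as standing apart from their groups. No count of members called changed without these 4 libraries. Brain replicate 6 was not among the 4, although the chi-square per degree of freedom between brain libraries reached 806 for it and 644 for replicate 2. The 10 ILC2 genes in the table (of 12 listed) made up 0.00696 to 0.0201% of the normalized total in brain, 0.202 to 0.279% in blood day 5, 0.0312 to 0.226% in blood day 1 and 0.302 to 0.387% in culture. Gata3, the transcription factor that ILC2s depend on, had a mean of 13.3 normalized counts in brain, 1588 in blood day 5, 1279 in blood day 1 and 315 in culture. Rora, another ILC2 transcription factor, had 1049 in brain, 1019 in blood day 5, 914 in blood day 1 and 59.8 in culture. Of 9 ILC2 genes tested, 3 rose and 5 fell in brain against culture, and none rose while 5 and 6 fell in brain against blood day 5 and day 1. Over all genes tested, 37.5% rose and 11.7% fell in brain against culture, so the 3 rises were near the background. In brain against blood day 5, 33.6% of all genes rose and 14.3% fell, and against day 1 these were 37.3% and 14.1%. Il5, an ILC2 cytokine, stayed at or below 13.8 normalized counts in every library. The culture share rested mainly on Klrg1, Thy1, Ptprc and Il2ra, with means of 23914, 23388, 16277 and 15251. Il1rl1 (ST2), Il7r (CD127) and Il17rb averaged 1.08, 24.5 and 3.69 there, although ST2 and CD127 were in the sort gate. Il1rl1 and Il7r averaged 125 and 2132 in blood day 5, 135 and 1392 in blood day 1, and 56.1 and 90.6 in brain. Markers of microglia (14 genes) made up 0.82 to 2.4% in brain, 0.206 to 0.294% in blood day 5 and 0.182 to 0.275% in blood day 1. In culture they made up 0.0123 to 0.031%, and Sall1, a microglial transcription factor, was at 0 in all 5 libraries. Tyrobp had the largest mean of these genes in both blood groups (30591 on day 5 and 32526 on day 1). Within batch 1 some libraries were near repeats. The chi-square per degree of freedom between libraries reached 4.29 to 13.1 in the 3 culture libraries of that batch and 10.4 for the pair of brain replicates 1 and 3. It was 47.9 or more in every other pair within a group. The p-values in batch 1 alone, and those of the model over all 23 libraries, thus rest on fewer independent libraries than their number. With these sets averaged, C1qa, C1qb, C1qc and C3ar1 still rose in brain against each of the other groups (adjusted p at most 1.07e-04 in limma). The calls of Cfb in blood day 1 against culture (adjusted p = 0.0855) and of Cfp in brain against blood day 5 (0.0607) were then lost. Bulk values cannot tell fewer cells of a type apart from less RNA per cell. Whether the complement values of a library were those of ILC2s was not tested.

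The 3 C1q genes lie side by side on mouse chromosome 4 (GENCODE M21, GRCm38, minus strand): C1qb at chr4:136880129-136886187, C1qc at chr4:136889804-136893065 and C1qa at chr4:136895917-136898803. The bases upstream of the transcription starts of 4 members are shown because C1qb, C1qc and C3ar1 were the members with a RefSeq promoter entry (GRCm38.p6) that rose in brain over all other groups, and Cfp the one that fell in brain against both blood groups. They run 5′ to 3′ on the minus strand, which all 4 genes use, and are the windows chr4:136886201-136886450 (C1qb), chr4:136893066-136893164 (C1qc), chr6:122856162-122856407 (C3ar1) and chrX:20931556-20931805 (Cfp). The C1qc window ends 152 bases upstream of the RefSeq start and the other 3 end 1 to 5 bases upstream of theirs, so the bases of C1qc nearest to its start are not shown. Capitals mark GAGGAA or its reverse complement TTCCTC, the core bound by the myeloid factor PU.1, and TGCTGA or its reverse complement TCAGCA, a MAF half-site.
C1qb: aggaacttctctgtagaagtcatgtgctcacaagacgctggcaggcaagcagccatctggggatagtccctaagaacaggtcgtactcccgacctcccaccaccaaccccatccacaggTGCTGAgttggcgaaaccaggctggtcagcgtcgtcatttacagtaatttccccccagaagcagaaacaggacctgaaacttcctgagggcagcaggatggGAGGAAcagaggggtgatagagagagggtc
C1qc: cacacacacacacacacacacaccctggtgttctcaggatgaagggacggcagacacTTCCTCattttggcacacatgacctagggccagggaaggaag
C3ar1: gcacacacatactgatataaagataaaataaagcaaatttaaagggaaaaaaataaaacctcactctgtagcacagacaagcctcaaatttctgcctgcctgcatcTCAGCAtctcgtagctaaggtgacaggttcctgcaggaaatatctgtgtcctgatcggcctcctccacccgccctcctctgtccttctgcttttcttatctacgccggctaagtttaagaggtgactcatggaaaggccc
Cfp: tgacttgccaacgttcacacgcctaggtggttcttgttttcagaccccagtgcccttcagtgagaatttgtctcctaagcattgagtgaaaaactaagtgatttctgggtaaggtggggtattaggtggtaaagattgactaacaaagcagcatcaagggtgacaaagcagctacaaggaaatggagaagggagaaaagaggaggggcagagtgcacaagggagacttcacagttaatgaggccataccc

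GAGGAA was found 30 bases upstream of the C1qb start and, on the other strand, 193 bases upstream of the C1qc start, both counted from the RefSeq start. The search covered all 250 bases before each start. It occurred in 2 of the 6 members with an entry (C1qb, C1qc, C3, C3ar1, C5ar1 and Cfp), and in 23.3% of all 32851 RefSeq windows of 250 bases. TGCTGA was found 131 bases upstream in C1qb and 144 bases upstream, on the other strand, in C3ar1, as well as in C3 and C5ar1, so in 4 of 6 members against 16.1% of all windows. Both strands were searched, the 8 motifs given here were chosen with the windows known and after other letters had been looked at, and the 2 capitalised ones do not overlap each other. CATGTG (an E-box) was in C1qb and C1qc and in 12.3% of all windows, TTGCNNAA (C/EBP) in C3 and in 9.56%, and TGANTCA (AP-1) in C3ar1 and in 6.75%. An NF-kB motif, an ETS with IRF composite and CACGTG (an E-box) were in none of the 6 windows and in 0.356%, 2.3% and 6.02% of all windows. These matches describe letters in a window and are not binding sites.

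Across the members, all 8 rose in brain against culture, in blood day 5 against culture and in blood day 1 against culture. Here and below, rose and fell mean an adjusted p under 0.05 in limma (Benjamini-Hochberg over all 15268 genes), and differences are on the log2(normalized count + 1) scale with their standard errors. Of all genes tested, 37.5% rose and 11.7% fell in brain against culture, 19.6% rose and 11.4% fell in blood day 5 against culture, and 18.1% rose and 14% fell in blood day 1 against culture. The median log2 difference was 10.1 over the members and 0.67 over all genes in brain against culture, 5.63 and 0.138 in blood day 5 against culture, and 5.01 and 0.038 in blood day 1 against culture. Brain against blood day 5 had 4 members higher and 1 lower, where 33.6% of all genes rose and 14.3% fell, with medians of 3.06 and 0.472. Brain against blood day 1 had 5 members higher and 1 lower, where 37.3% of all genes rose and 14.1% fell, with medians of 4.03 and 0.768. No member changed in blood day 5 against blood day 1, where 0.0982% of all genes rose and 0.00655% fell. There limma gave 1 member (C5ar1) an unadjusted p under 0.05, edgeR called 0 members and DESeq2 called 1. The 3 comparisons with culture share its 5 libraries, and the brain libraries enter 3 comparisons.

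**Figure D1:**
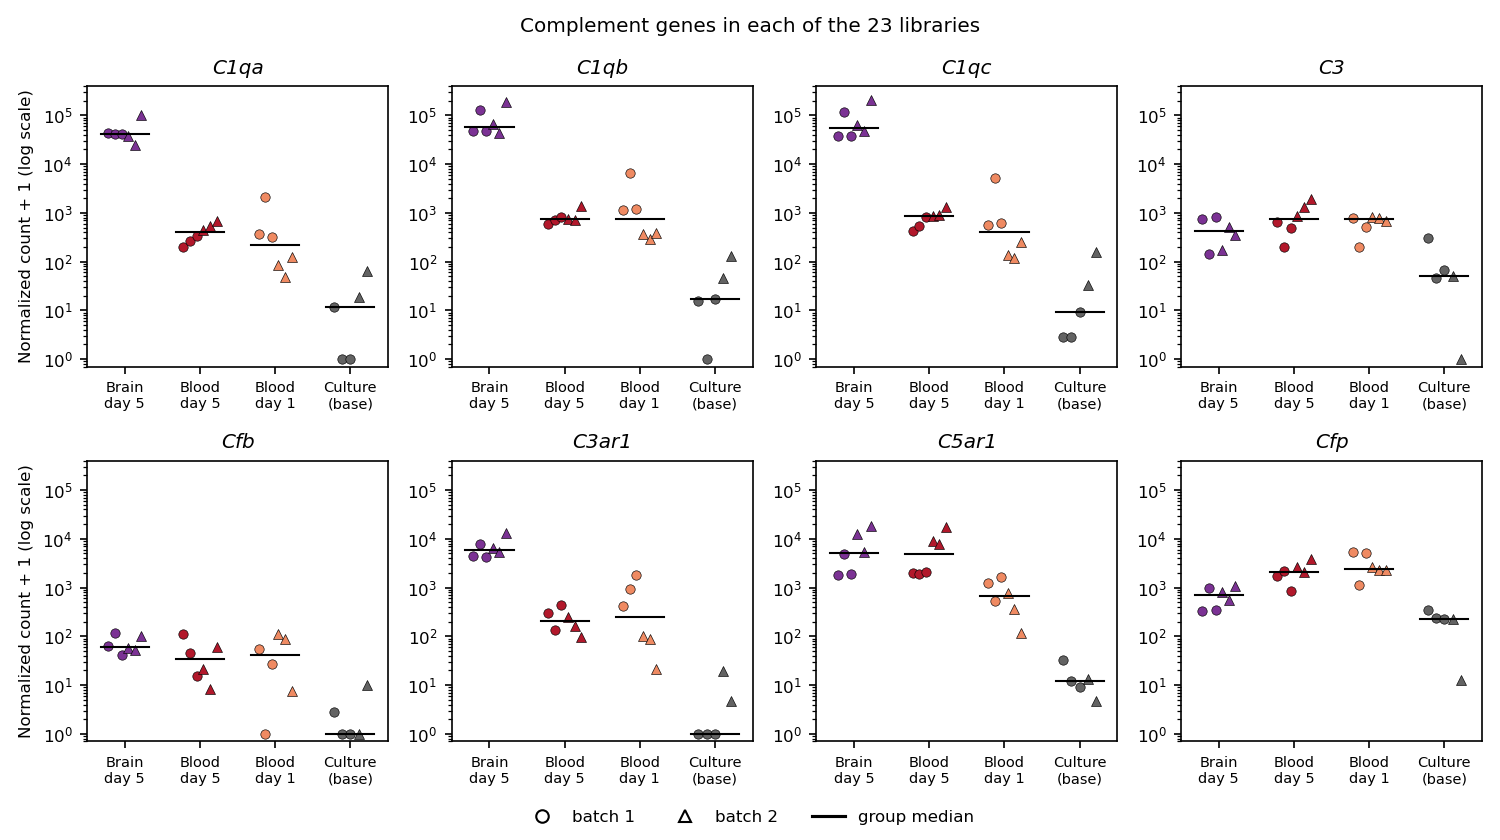
Normalized counts of the 8 complement genes in each library (log scale, value + 1), with brain day 5 at the left, then blood day 5, blood day 1 and culture, circles for batch 1 and triangles for batch 2. The C1q genes sit far above all other groups in brain. C3ar1 is also above them, by less (lowest brain library 4293.3, highest blood day 1 library 1783.8). C5ar1 covers nearly the same range in blood day 5 as in brain, and Cfp is highest in the 2 blood groups.

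The C1q genes were the most abundant members in brain and the ones that set brain most apart. C1qa, the A chain gene, had 25100.7 normalized counts in the lowest brain library, 41515 at the median and 100976.1 in the highest. Blood day 5 held 195.2, 396 and 664.7 at the same points, and blood day 1 held 47.2, 217 and 2164.1. The culture libraries held 10.8, 0, 0, 17.6 and 62.1 normalized counts of C1qa. Every brain library was thus more than 10 times above every library of the other groups, the 2 blood groups overlapped, and only blood day 1 reached down into the culture range. C1qa rose by 12.63 (SE 0.94) in brain against culture (adjusted p = 1.25e-10), by 6.86 (SE 0.9) in brain against blood day 5 (adjusted p = 9.51e-07) and by 7.61 (SE 0.9) in brain against blood day 1 (adjusted p = 2.05e-07).

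C1qb, the B chain gene, ran from 44420.7 to 189358.6 normalized counts in brain with a median of 57083. It ran from 583.9 to 1379.3 in blood day 5 (median 745) and from 290.9 to 6532.7 in blood day 1 (median 755). In culture it was 14.4, 0, 16.5, 46.1 and 129.3. C1qb therefore separated brain from both blood groups, and both blood groups from culture, without overlap. Its log2 difference was 12.01 (SE 0.89) in brain against culture (adjusted p = 1.08e-10), 6.52 (SE 0.85) in brain against blood day 5 (adjusted p = 8.28e-07) and 6.44 (SE 0.85) in brain against blood day 1 (adjusted p = 9.89e-07).

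C1qc, the C chain gene, ran from 37400.7 to 202651.5 normalized counts in brain (median 55235). It ran from 425.1 to 1343.2 in blood day 5 (median 846) and from 116 to 5189.0 in blood day 1 (median 406). Its culture values were 1.8, 1.8, 8.3, 32.5 and 160.3. Culture replicate 5 lay above the 2 lowest blood day 1 libraries, and brain again stood clear of the rest. C1qc differed by 12.3 (SE 0.93) in brain against culture (adjusted p = 1.52e-10), by 6.49 (SE 0.89) in brain against blood day 5 (adjusted p = 1.70e-06) and by 7.28 (SE 0.89) in brain against blood day 1 (adjusted p = 3.16e-07).

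The smaller rise of the C1q genes in blood over culture differed between batches. In blood day 5 against culture, C1qa differed by 5.77 (SE 0.94, adjusted p = 4.51e-05), with 6.83 in batch 1 and 3.99 in batch 2. C1qb differed there by 5.49 (SE 0.89, adjusted p = 4.00e-05) and C1qc by 5.81 (SE 0.93, adjusted p = 3.51e-05). In blood day 1 against culture, C1qa differed by 5.02 (SE 0.94, adjusted p = 2.44e-04), C1qb by 5.56 (SE 0.89, adjusted p = 3.71e-05) and C1qc by 5.01 (SE 0.93, adjusted p = 2.10e-04). Within batch 2 alone the blood day 1 difference was 1.21 for C1qa (adjusted p = 0.27) and 1.11 for C1qc (adjusted p = 0.344), so neither passed there, against 8.11 and 8.18 in batch 1. The brain differences passed in each batch. Where culture libraries hold few or no reads, the pseudocount of 1 sets part of the size of a difference.

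Together the C1q genes took 0.492 to 1.74% of the normalized total in brain, 0.006 to 0.0183% in blood day 5, 0.00257 to 0.0305% in blood day 1 and 7.79e-06 to 0.00129% in culture. Most markers of microglia moved with them. Against culture 13 of the 14 microglia genes rose in brain, 8 in blood day 5 and 7 in blood day 1. Of all genes, 37.5%, 19.6% and 18.1% rose there. In brain 12 of 14 rose against each blood group, where 33.6% (day 5) and 37.3% (day 1) of all genes rose. Tmem119, a microglial surface protein gene, averaged 17679 normalized counts in brain, 166 in blood day 5, 96.4 in blood day 1 and 31.3 in culture. Tyrobp averaged 24164 in brain, 30591 in blood day 5 and 32526 in blood day 1. P2ry12 averaged 7593 (SD 7134), 2507 (SD 1425) and 7973 (SD 15041) in the same groups. It ran from 500.9 to 38632.6 in blood day 1, where the highest library made up most of the mean. Tyrobp was thus most of the mean microglia sum in blood day 5 (47509) and blood day 1 (53366), but not in brain (308151). The sum therefore rests on different genes in brain and in blood, which limits ratios to it. The sum of the C1q genes over the sum of the 14 microglia genes was 0.381 to 1.06 in brain, 0.0212 to 0.0668 in blood day 5, 0.0139 to 0.153 in blood day 1 and 0.000633 to 0.0417 in culture. The 11 monocyte and macrophage genes in the table (of 13) made up 0.246 to 0.581% in brain, 0.123 to 0.214% in blood day 5, 0.112 to 0.234% in blood day 1 and 0.0748 to 0.187% in culture. The part of either cell type in the C1q values was not tested.

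**Figure D2:**
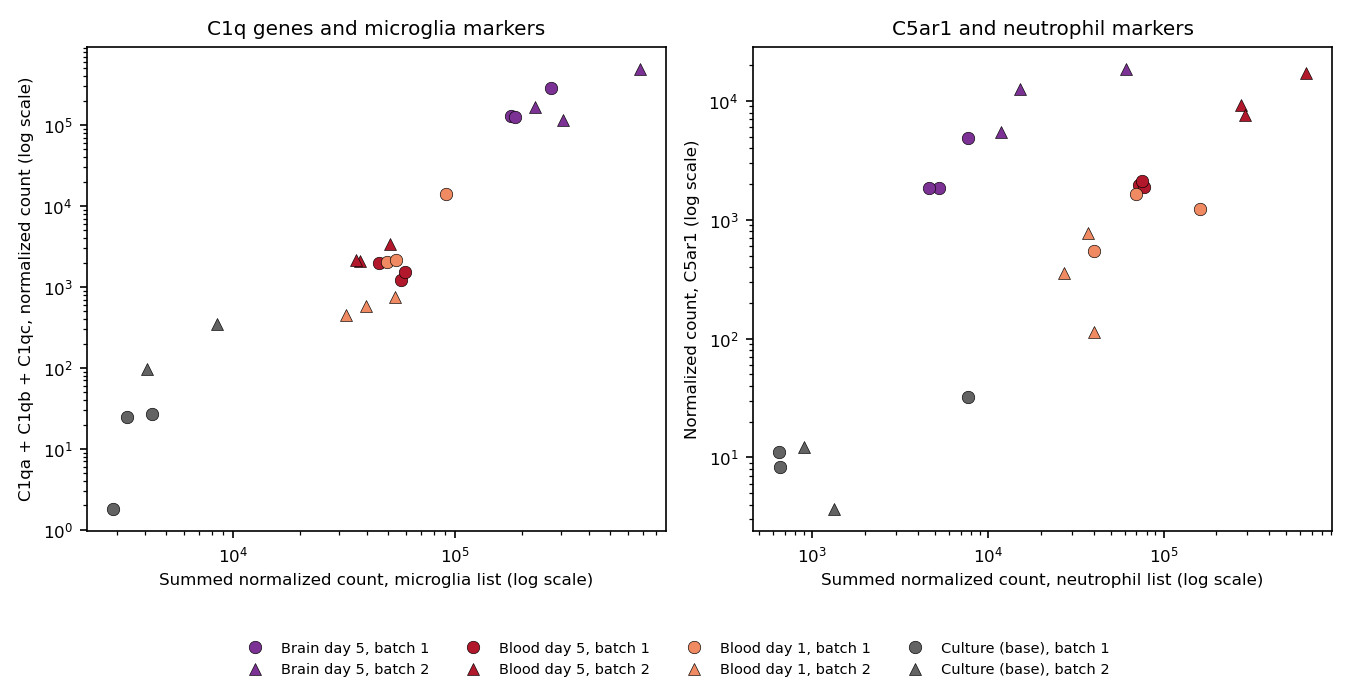
Left, summed normalized counts of C1qa, C1qb and C1qc against the summed 14 microglia genes in each library; right, C5ar1 against the summed 12 neutrophil genes (all axes log scale, circles batch 1, triangles batch 2). Brain libraries lie at the top right on the left, with C1q sums of at least 117041, and on the right they hold C5ar1 at neutrophil sums below those of all blood day 5 libraries.

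The 3 chains did not keep one ratio across groups. C1qb over C1qa was 1.1 to 3.04 in brain, 1.34 to 2.99 in blood day 5 and 3.02 to 6.17 in blood day 1. The log2 ratio differed by -1.18 between brain and blood day 1 (exact permutation test over libraries, two-sided, p = 0.00433, adjusted over 9 tests p = 0.013) and by -0.84 between blood day 5 and blood day 1 (exact permutation p = 0.00216, the smallest 6 against 6 libraries allow, adjusted p = 0.00974). Within batch 1 the second of these was -0.29, and within batch 2 it was -1.39. C1qc over C1qb was 0.799 to 1.07 in brain, 0.728 to 1.24 in blood day 5 and 0.373 to 0.794 in blood day 1. It differed by 0.85 between brain and blood day 1 (exact permutation p = 0.00216, adjusted p = 0.00974) and by 0.88 between blood day 5 and blood day 1 (exact permutation p = 0.00649, adjusted p = 0.0146). The other 5 of the 9 ratio tests did not pass. Without the 4 libraries that stood apart these 4 calls held, each at an adjusted p of 0.0357. These ratios were chosen with the values known. Per kilobase of exon, C1qb made up 41.4 to 53.4% of the C1q total in brain, 40.4 to 56.8% in blood day 5 and 55.7 to 71.7% in blood day 1.

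**Figure D3:**
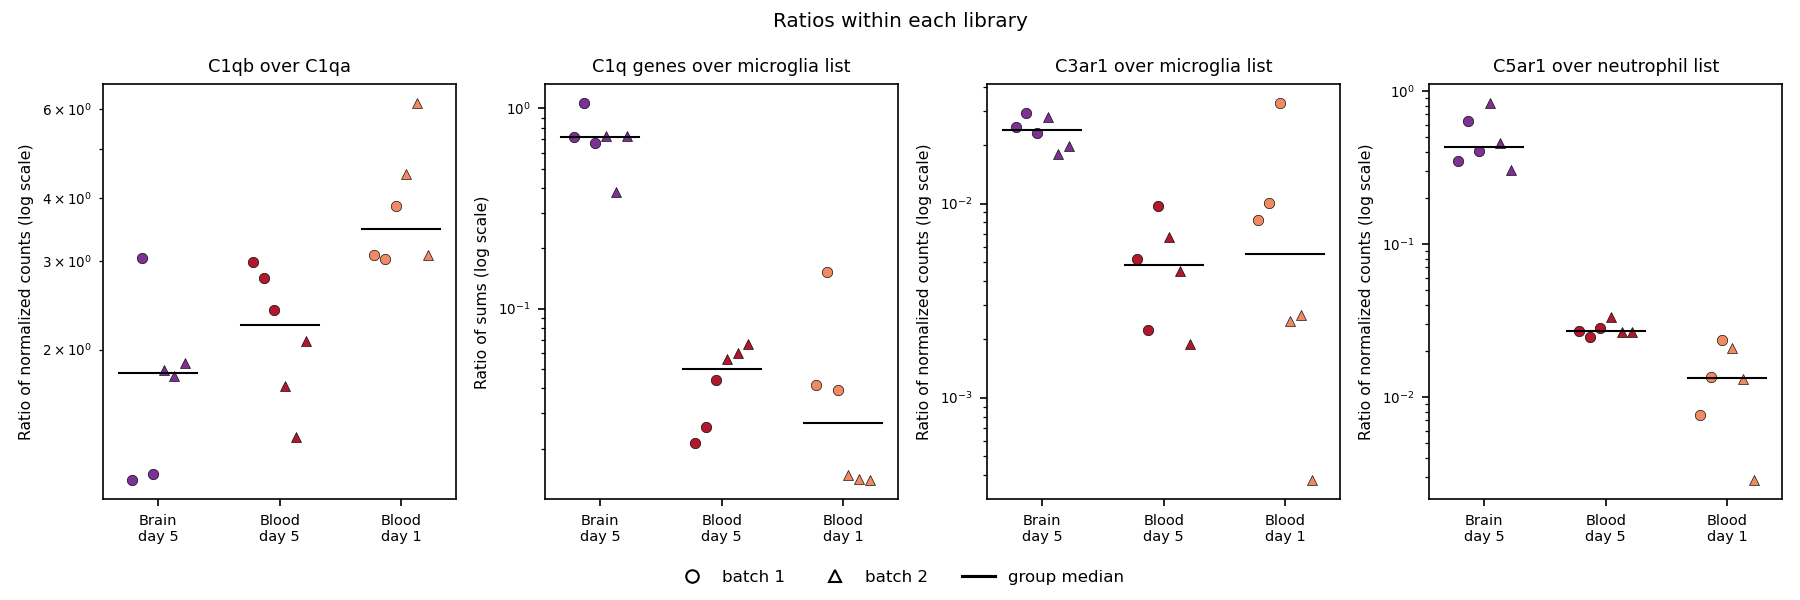
Ratios within each library in brain day 5, blood day 5 and blood day 1 (log scales; circles batch 1, triangles batch 2, bars group medians): C1qb over C1qa, the C1q sum over the microglia sum, C3ar1 over the microglia sum and C5ar1 over the neutrophil sum. C1qb over C1qa is at least 3.02 in blood day 1, and the C1q and C5ar1 ratios are higher in every brain library than in any blood library.

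C3 (chr17:57203970-57228136), the central component, was far less abundant per kilobase than C1q in brain, and its brain and blood values overlapped. Its normalized counts were 144.9 to 834.9 in brain (median 429), 202.4 to 1929.3 in blood day 5 (median 763) and 195.1 to 823.8 in blood day 1 (median 733). Culture held 299.7, 45.7, 66.0, 50.8 and 0. The highest culture library overlapped each of the other groups, and brain and the blood groups overlapped widely. C3 rose by 3.47 (SE 0.97, adjusted p = 0.00435) in brain, by 4.41 (SE 0.97, adjusted p = 0.00103) in blood day 5 and by 4.08 (SE 0.97, adjusted p = 0.00225) in blood day 1, each against culture. Brain differed by -0.94 (SE 0.92) from blood day 5 (adjusted p = 0.435) and by -0.61 (SE 0.92) from blood day 1 (adjusted p = 0.598), which did not pass. Culture replicate 5, which held no read of C3, set part of these sizes, and without it they were 2.05 in brain, 2.99 in blood day 5 and 2.66 in blood day 1, all still passing. In batch 1 alone, none of the 3 comparisons with culture passed (adjusted p = 0.0759, 0.12 and 0.0939 in brain, blood day 5 and blood day 1), and with edgeR brain against culture did not (1.85, adjusted p = 0.0841).

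Cfb (chr17:34856374-34862518), the alternative pathway protease gene, was the member with the fewest reads. It had 39.6 to 114.2 normalized counts in brain (median 60.5), 7.3 to 109.2 in blood day 5 (median 32.7) and 0 to 111.0 in blood day 1 (median 39.7). In culture it had 1.8, 0, 0, 0 and 8.9, from 13 reads in all. Brain did not overlap culture, while both blood groups did. The rise over culture was 5.06 (SE 1.02, adjusted p = 2.14e-04) in brain, 3.93 (SE 1.02, adjusted p = 0.00462) in blood day 5 and 3.44 (SE 1.02, adjusted p = 0.0126) in blood day 1. Brain did not pass against blood day 5 (1.13, SE 0.97, adjusted p = 0.367) or blood day 1 (1.62, SE 0.97, adjusted p = 0.17). The blood day 1 call was lost in each batch alone (adjusted p = 0.12 in batch 1 and 0.11 in batch 2), with the libraries of these 2 groups alone (0.0708) and with the closest libraries averaged (0.0855), and the blood day 5 call in batch 2 (adjusted p = 0.202). Another annotated gene on the same strand, Gm20547, covers 79.5% of the exon bases of Cfb, so counting may have split its reads.

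Cfp (chrX:20925454-20931555), the properdin gene, was the one member whose fall in brain against blood passed the threshold. It had 332.5 to 1062.7 normalized counts in brain (median 692), 859.3 to 3834.5 in blood day 5 (median 2135) and 1114.6 to 5416.8 in blood day 1 (median 2439). Culture held 350.2, 235.6, 221.2, 224.3 and 11.8. The brain and blood day 1 ranges did not overlap, brain and blood day 5 overlapped, and 1 culture library lay within the brain range. Cfp fell by 2.15 (SE 0.62) in brain against blood day 1 (adjusted p = 0.00585) and by 1.71 (SE 0.62) in brain against blood day 5 (adjusted p = 0.0262). It rose by 2.16 (SE 0.65) in brain (adjusted p = 0.00802), by 3.87 (SE 0.65) in blood day 5 (adjusted p = 6.28e-05) and by 4.3 (SE 0.65) in blood day 1 (adjusted p = 1.87e-05), each against culture. Against blood day 5 the fall in brain was lost without any one of blood day 5 replicate 4 or 6 or brain replicate 1 or 3 (adjusted p = 0.0533, 0.066, 0.0643 and 0.0638) in each batch alone (-1.6 and -1.82) and with the closest libraries averaged, and against blood day 1 it was lost in batch 2 alone (-1.59, adjusted p = 0.153). The rise in brain against culture was 1.2 without culture replicate 5 (adjusted p = 0.0316), and was lost in batch 1 (0.87, adjusted p = 0.325) and with edgeR (1.39, adjusted p = 0.0643).

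C3ar1 (chr6:122847138-122856161), the C3a receptor gene, had its highest values in brain, as the C1q genes did. It had 4293.3 to 13411.0 normalized counts in brain (median 5932), 95.8 to 435.9 in blood day 5 (median 205) and 20.2 to 1783.8 in blood day 1 (median 254). Its culture values were 0, 0, 0, 18.3 and 3.7. Brain stood above every library of the other groups, blood day 1 spread over a factor of 88.2 between its libraries, and both blood groups lay above culture. C3ar1 rose by 11.39 (SE 0.94) in brain against culture (adjusted p = 6.39e-10), by 4.99 (SE 0.89) in brain against blood day 5 (adjusted p = 5.76e-05) and by 4.85 (SE 0.89) in brain against blood day 1 (adjusted p = 8.23e-05). Against culture it rose by 6.4 (SE 0.94) in blood day 5 (adjusted p = 1.19e-05) and by 6.54 (SE 0.94) in blood day 1 (adjusted p = 9.54e-06), the second of which was 2.58 in batch 2 alone (adjusted p = 0.0802). Relative to the microglia sum, C3ar1 was 0.0179 to 0.0294 in brain, 0.00189 to 0.00966 in blood day 5 and 0.000376 to 0.0328 in blood day 1. In blood that sum was mostly Tyrobp.

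C5ar1 (chr7:16246743-16259540), the C5a receptor gene, was high both in brain and in blood day 5. It had 1842.0 to 18612.2 normalized counts in brain (median 5162) and 1897.0 to 17181.9 in blood day 5 (median 4881). Blood day 1 had 114.5 to 1638.4 (median 660), and culture had 32.5, 11, 8.3, 12.2 and 3.7. Brain and blood day 5 covered nearly the same range, both above every blood day 1 library, and culture lay below all. C5ar1 rose by 8.75 (SE 0.74) in brain (adjusted p = 9.25e-10), by 8.55 (SE 0.74) in blood day 5 (adjusted p = 5.91e-09) and by 5.55 (SE 0.74) in blood day 1 (adjusted p = 3.52e-06), each against culture. Brain differed from blood day 5 by 0.2 (SE 0.7, adjusted p = 0.853), and rose by 3.2 (SE 0.7) over blood day 1 (adjusted p = 5.38e-04).

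The difference of C5ar1 from blood day 1 was larger in batch 2 than in batch 1. Brain against blood day 1 was 1.31 in batch 1 (adjusted p = 0.0952) and 5.09 in batch 2 (adjusted p = 1.99e-04). Blood day 5 against blood day 1 was 3.01 (SE 0.7, adjusted p = 0.139), with 0.95 in batch 1 and 5.06 in batch 2 (adjusted p = 0.0154). With DESeq2 this difference passed (2.69, adjusted p = 0.0146). The 12 neutrophil genes made up 0.0213 to 0.216% of the normalized total in brain, 0.362 to 3.48% in blood day 5, 0.0886 to 0.799% in blood day 1 and 0.00278 to 0.0334% in culture. All 12 rose against culture in blood day 5 (19.6% of all genes did) and in blood day 1 (18.1%). In brain against blood day 5, 11 fell (14.3% of all genes did). C5ar1 over the neutrophil sum was 0.305 to 0.828 in brain, 0.0245 to 0.0332 in blood day 5, 0.00285 to 0.0236 in blood day 1 and 0.00279 to 0.0168 in culture. Over the microglia sum, C5ar1 was 0.00999 to 0.0549 in brain, 0.0319 to 0.339 in blood day 5 and 0.00213 to 0.0302 in blood day 1. In blood the microglia sum was mostly Tyrobp. The part of neutrophil and microglia RNA in C5ar1, and of neutrophil RNA in Cfp, was not tested.

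**Figure D4:**
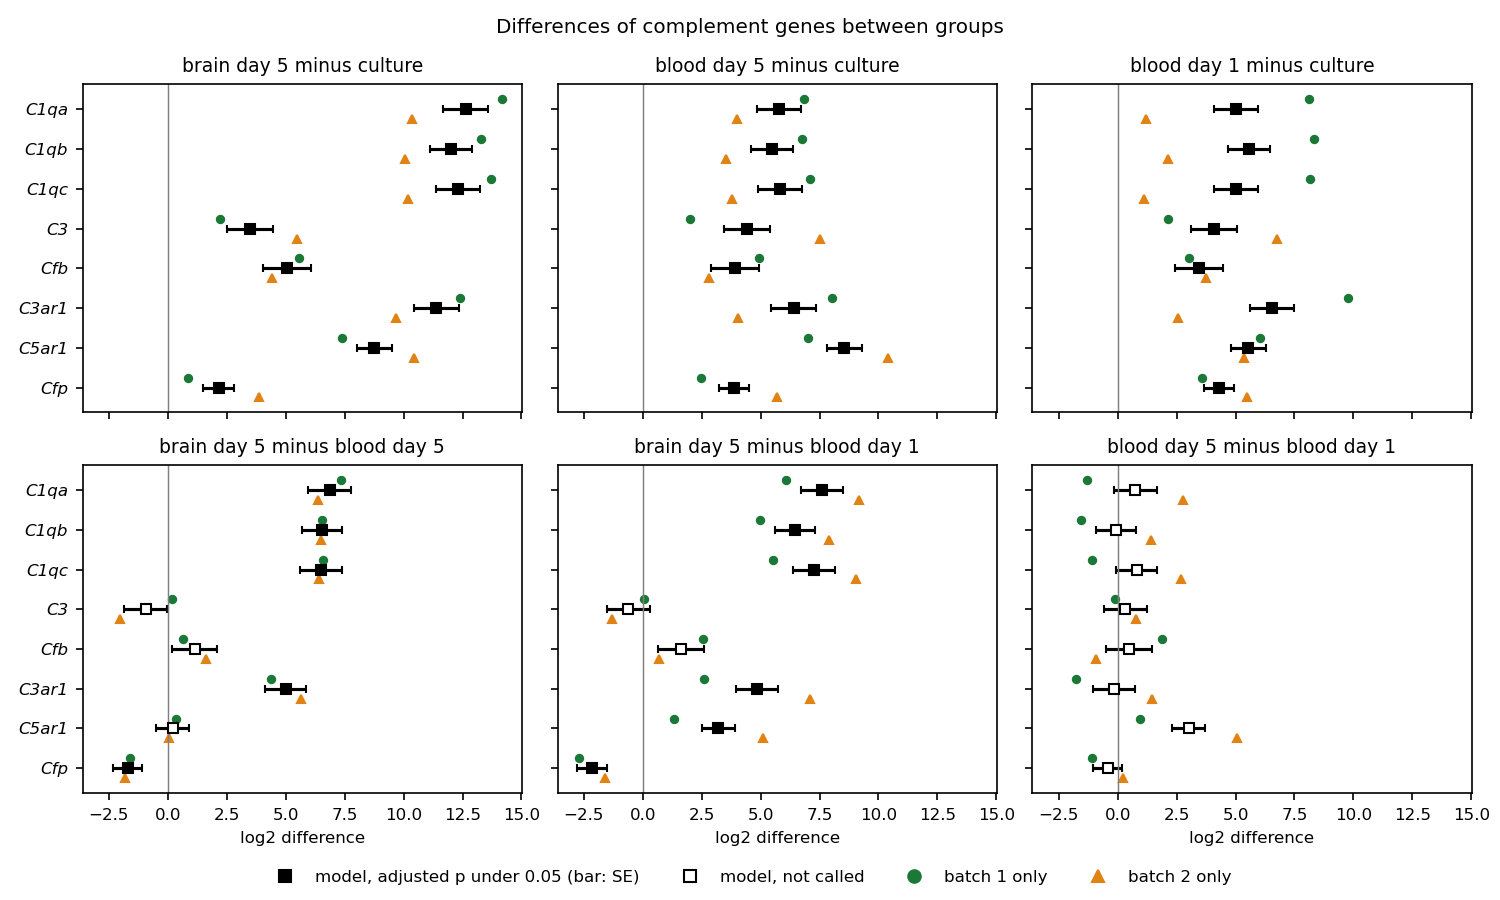
Differences of the 8 complement genes in log2(normalized count + 1) with standard errors (squares, filled where the adjusted p is under 0.05; green circles batch 1, orange triangles batch 2), for brain day 5, blood day 5 and blood day 1 against culture and for brain against each blood group and blood day 5 against blood day 1. C1qa, C1qb, C1qc and C3ar1 are higher in brain than in blood by 4.85 to 7.61, C5ar1 only against blood day 1, and Cfp is lower.

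The ranges of the groups were also compared without a model. In brain against culture 6 of 8 members lay above culture in every library (28.4% of all genes), in blood day 5 against culture 6 (15.2%) and in blood day 1 against culture 4 (9.7%). No member lay below culture in every library, where 7.27%, 9.54% and 7.39% of all genes did in brain, blood day 5 and blood day 1. Brain lay above blood day 5 for 4 members (24.9%) and above blood day 1 for 5 (22.2%), and lay below blood day 1 for Cfp alone (7.07%). Blood day 5 lay above blood day 1 for C5ar1 alone (0.603%) and below it for none (0.517%).

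Compared per kilobase of exon, the order of the members changed between groups. In brain the mean normalized count per kilobase was 79841 for C1qb, 46286 for C1qa and 43778 for C1qc, then 2931 for C5ar1, 1624 for C3ar1, 394 for Cfp, 88.9 for C3 and 25.2 for Cfb. C1qa and C1qc did not differ beyond their spread there (SD 25669 and 33791), nor did C5ar1 and C3ar1 (SD 2604 and 795). In blood day 5, C5ar1 led with 2593 per kilobase, followed by Cfp with 1279, C1qb with 764, C1qc with 422, C1qa with 393, C3 with 176, C3ar1 with 53.0 and Cfb with 15.1. In blood day 1, Cfp led with 1803 per kilobase, followed by C1qb with 1517, C1qc with 592, C1qa with 496, C5ar1 with 302, C3ar1 with 128, C3 with 123 and Cfb with 16.7. The C1q means in blood day 1 rested on replicate 2, also the blood library with the highest choroid plexus share (0.151%). Without replicate 2 C1qb was at 620 per kilobase, and C1qa at 179 and C1qc at 173 were below C5ar1 at 320. The medians over all 6 libraries gave the same place to C5ar1 (257, against 209 for C1qa and 210 for C1qc). Both were chosen after seeing the data. Culture held 120 per kilobase of Cfp and at most 37.9 of any other member.

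The gene profiles nearest to each member over the 23 libraries, by the root mean square difference of centred log2 values among 13956 genes were then named. The 3 C1q genes were nearest to one another, at 0.75 for C1qb and C1qc and 0.89 for C1qa with either. Next came Igfbp7 for C1qa (1.16) and C1qb (1.09), and Gpnmb for C1qc (0.98). C3ar1 lay nearest to Cd63 (1.07), Ckb (1.1) and Kcnk1 (1.2). C5ar1 lay nearest to Chil1 (1.26), Lpcat2 (1.26) and Fcgr3 (1.31), and Cfb to Sgk3 (1.16), Ms4a6d (1.23) and Milr1 (1.32). C3 lay nearest to Rnf157 (0.86), Cbfa2t3 (0.87) and Traf4 (0.88), and Cfp to Dffb (0.77), Aoah (0.82) and BC043934 (0.83).

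Of 51 further complement genes listed by role, 33 were in the table and 24 were tested. Cpn1, Masp1, Csmd1 and Csmd3 were among those that would not have passed the filter on low values without their brain libraries. A rise of these genes in brain was thus built into their selection. In brain against culture 14 rose and 4 fell, in blood day 5 against culture 7 rose and 2 fell, and in blood day 1 against culture 6 rose and 1 fell. In brain 11 rose and 5 fell against blood day 5, and 11 rose and 4 fell against blood day 1. Among all genes tested the shares that rose and fell were 37.5% and 11.7% in brain, 19.6% and 11.4% in blood day 5 and 18.1% and 14% in blood day 1 against culture, and 33.6% and 14.3% in brain against blood day 5 and 37.3% and 14.1% against blood day 1. In limma, 0 of the 24 changed in blood day 5 against blood day 1, with 3 (Fcna, Colec12 and C5ar2) at an unadjusted p under 0.05, and edgeR and DESeq2 called 0 as well. Their median log2 difference was 5.06 in brain against culture and 2.1 and 2.25 in brain against blood day 5 and day 1. Of the terminal pathway, which forms the membrane attack pore, C8g was the 1 gene tested of 7 listed, and it changed in no comparison.

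Of the soluble regulators, all 5 tested rose in brain against culture and 4 of 5 against each blood group. Of all genes, 37.5% rose against culture, 33.6% against blood day 5 and 37.3% against blood day 1. Among the 5, Cpn1 would not have passed the filter without its brain libraries. Serping1, the C1 inhibitor, averaged 6813 normalized counts in brain (SD 4461) and 1.63 in culture (SD 3.64), a difference of 11.85 (SE 1.18, adjusted p = 1.38e-08). Vtn (vitronectin), which blocks the membrane attack complex, averaged 7312 in brain (SD 3585), 17.1 in blood day 5, 71.7 in blood day 1 and 0.678 in culture, with differences of 12.29 against culture (SE 1.36, adjusted p = 6.68e-08), 10.1 against blood day 5 and 9.65 against blood day 1. Clu (clusterin) averaged 94209 in brain, 22802 in blood day 5, 77614 in blood day 1 and 726 in culture. It rose by 10.6 (SE 1.34) in brain, by 8.31 in blood day 5 and by 9.48 in blood day 1 against culture, with blood day 1 replicate 2 at 346510.4. The size of these rises differed by batch, with 13.21 and 6.61 in brain, 12.65 and 2.6 in blood day 5 and 13.5 and 4.08 in blood day 1 (batch 1, then batch 2), and culture held 9.0, 14.6, 0, 3067.6 and 539.3 normalized counts of Clu. The 6 platelet genes made up 4.71% of blood day 1 replicate 2 and at most 0.713% of the other blood day 1 libraries, and their part in Clu was not tested. Cpn1, the carboxypeptidase that trims C3a and C5a, averaged 1167 in brain (SD 439), held 1 read over all blood day 5 libraries and 3 over all blood day 1 libraries. Its ratio of read rates was 10400 in brain against blood day 5 (95% exact counting interval 1860 to 409000) and 2820 in brain against blood day 1 (964 to 13700). Such intervals and floors cover counting error only.

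In the classical and lectin pathway 5 of 15 listed genes were tested. Of these, 4 rose in brain against culture and none fell, where 37.5% of all genes rose and 11.7% fell. Masp1, a lectin pathway protease, averaged 1132 normalized counts in brain (SD 294) and had no read in culture, so brain was at least 282-fold higher against a floor of 3 reads per library (175-fold in batch 1). Against blood day 5 it differed by 9.59 (SE 0.87, adjusted p = 2.96e-09). Colec12, a scavenger collectin of the cell surface, averaged 2218 in brain (SD 578) and 3.52 in blood day 1 and differed by 9.77 (SE 0.98, adjusted p = 1.71e-08). The ficolin genes Fcna and Fcnb, whose products bind sugars on targets, rose in both blood groups against culture. The blood day 1 rises did not pass in batch 1 alone (adjusted p = 0.0571 for Fcna and 0.194 for Fcnb), where replicate 2 was at 0 for both. Fcna averaged 520 in brain, 583 in blood day 5 and 166 in blood day 1 and had 1 read in culture, a ratio of read rates of 2630 (471 to 104000) and 713 (128 to 28200) for the 2 days. Fcnb averaged 646 in blood day 5 and 5.93 in culture, rose by 7.56 (SE 1.46, adjusted p = 2.86e-04), and fell by 4.73 (SE 1.39) in brain against blood day 5 (adjusted p = 0.0067), a fall that edgeR (adjusted p = 0.0639) and each batch alone did not call.

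Among membrane regulators, 3 of 7 rose and 2 fell in brain against culture. There 37.5% of all genes rose and 11.7% fell, so the rises were near the background. Susd4 averaged 193 normalized counts in brain, 19.6 in blood day 5, 7.83 in blood day 1 and 1535 in culture. Against culture it fell in all 3 groups, with log2 differences of -3.41 in brain, -7.11 in blood day 5 and -8.1 in blood day 1 (SE 1.04 each). Cr1l (Crry), which limits C3 convertases, fell by 1.32 (SE 0.27) in brain against culture (adjusted p = 2.49e-04) and by 0.81 (SE 0.26) in brain against blood day 1 (adjusted p = 0.0115), the second of which was lost in batch 2 alone (-0.59, adjusted p = 0.231). Susd4 in brain did not pass in either batch alone (adjusted p = 0.0679 and 0.107). Csmd3 averaged 251 in brain and had no read in blood day 5, at least 83.1-fold higher in brain against the same floor (71.4-fold in batch 1).

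Of the 6 receptors tested, 3 fell and none rose in brain against blood day 5, and 3 fell and 1 rose in brain against blood day 1. Of all genes, 14.3% fell and 33.6% rose against blood day 5, and 14.1% fell and 37.3% rose against blood day 1. Cr2, the complement receptor of B cells, averaged 3.58 in brain and 673 in blood day 5 and fell by 7.87 (SE 1.19, adjusted p = 6.74e-06), while the log2 difference was -5.52 (SE 1.19) against blood day 1 (-2.29 in batch 1, adjusted p = 0.165). All 5 B cell marker genes fell in brain against blood day 5 too (14.3% of all genes did), and their part in Cr2 was not tested. Itgb2, the shared chain of the complement receptors CR3 and CR4, averaged 7428 in brain (SD 1808), 49347 in blood day 5 (SD 6015) and 48515 in culture (SD 3623). Its log2 difference in brain was -2.75 (SE 0.26) against blood day 5, -2.98 (SE 0.26) against blood day 1 and -2.73 (SE 0.27) against culture, and all 3 passed. Cd93 rose by 5.39 (SE 0.76) in blood day 1 against culture (adjusted p = 7.30e-06), and C1qbp fell by 0.63 (SE 0.24) in blood day 5 against culture (adjusted p = 0.0494), a call lost in most alternatives, with adjusted p = 0.498 at equal library totals.

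Itgam, which encodes CD11b, the other chain of CR3 and one of the lineage markers depleted before culture, split the brain libraries by batch. It had 1.9, 0 and 0 normalized counts in the 3 brain libraries of batch 1, and 821.9, 3840.6 and 4501.1 in those of batch 2. All 5 culture libraries were at 0, blood day 5 ran from 3575.3 to 9063.0 and blood day 1 from 1304.2 to 3397.4. Blood day 5 was at least 1420-fold above culture (1330-fold in batch 1) and blood day 1 at least 582-fold (539-fold in batch 1). Brain fell by 6.52 (SE 1.51) against blood day 5 (adjusted p = 9.31e-04), with -12.21 in batch 1 and -0.82 in batch 2 (adjusted p = 0.322). Against blood day 1 it fell by 5.24 (SE 1.51, adjusted p = 0.00571), with -10.92 in batch 1 and 0.44 in batch 2 (adjusted p = 0.596). Neither edgeR (adjusted p = 0.122 and 0.392 against the 2 blood days, day 5 first) nor DESeq2 (adjusted p = 0.0887 and 0.433) called these falls. C1qb in the same 3 brain libraries of batch 1 was 46846.1, 126473.0 and 46784.4.

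**Figure D5:**
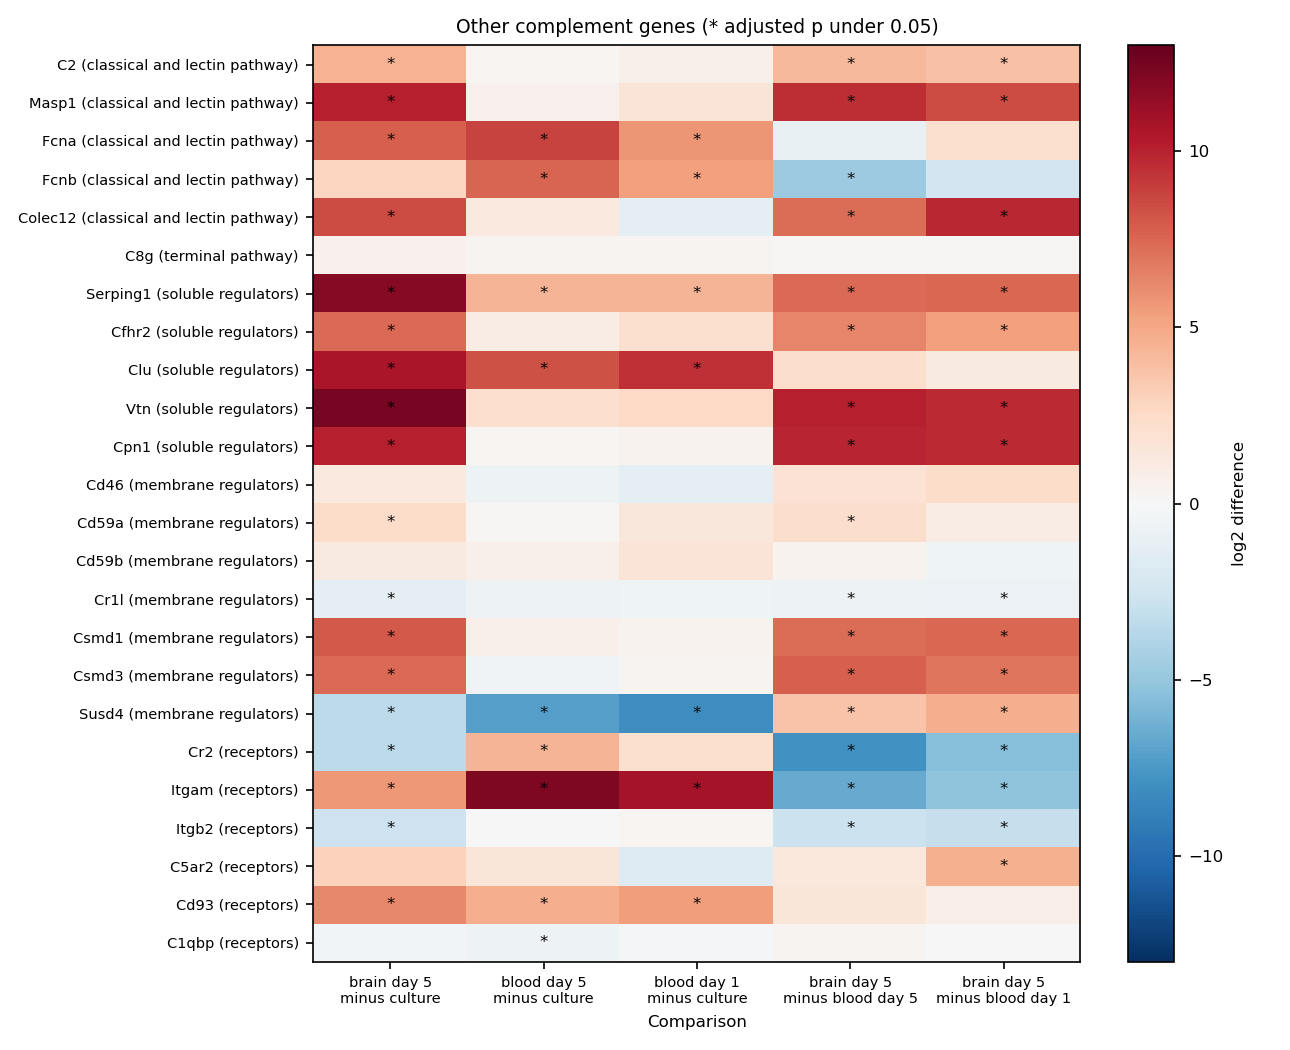
Log2 differences of the 24 other complement genes tested (rows, with their role) in brain, blood day 5 and blood day 1 against culture and in brain against each blood group (columns), red for higher and blue for lower, with a star for an adjusted p under 0.05. Soluble regulators are red in the brain columns, with Vtn at 12.29 against culture, while Cr2, Itgam and Itgb2 are blue in brain against both blood groups.

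Brain libraries also held transcripts of other brain cells. Choroid plexus markers (10 genes) made up 1.46 to 7.81% of the normalized total in brain. In the other groups they reached at most 0.151%, in blood day 1 replicate 2. Fibroblast markers (8 genes) made up 0.257 to 1.03% in brain and at most 0.00792% elsewhere. Astrocyte markers (10 genes) made up 0.117 to 0.29% in brain and at most 0.0427% elsewhere. All of these markers rose in brain against each blood group, together with Serping1, Vtn and Masp1. Over all genes, 33.6% rose in brain against blood day 5 and 37.3% against blood day 1. The part of these cells in the complement values was not tested.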

How the data were processed

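The labels' protocols describe poly-A selected RNA-seq libraries sequenced as paired 150 bp reads. The submitters' processing notes name fastp, HISAT2 2.0.5 and the genome build mm10. The counting tool, gene annotation and strand setting were not given in any source used. The deposited table holds a signal per gene and library, named normalized counts by the authors: reads divided by 1 factor per library. Whole reads were recovered, since 100% of values were whole multiples of 1 read (tolerance 0.1 read), and median-of-ratios factors recomputed over 7556 genes free of zeros differed by at most 7.6e-08 percent.

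The test was limma 3.58.1 (R 4.3.3) on log2(value + 1), with lmFit and an eBayes step using a trend and robust estimation. The 23 libraries entered 1 model with 4 groups and batch. A gene was tested if 5 or more libraries held a value of 10 or more, which left 15268 genes. Tests were two-sided with Benjamini-Hochberg adjustment over all of them and a threshold of 0.05. The script was tested on simulated data. On recovered reads, edgeR 4.0.16 (TMM, quasi-likelihood) called 4784 genes higher and 2746 lower in brain against culture, where limma called 5733 and 1780. DESeq2 1.42.0 was another alternative, as were other pseudocounts (0.5 and 10), no filter, equal library totals, no batch term, each batch alone, only the libraries of both groups, a replicate block and leaving out libraries. Within-batch differences come from group means in 1 batch, and their adjusted p from the same model on that batch. Ratios were tested with exact permutation tests over libraries.

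Members and lists were chosen with earlier results of these data known. All members were named. From the wider list, up to 4 rises and 4 falls per comparison were named by size of log2 difference, if they passed the threshold and averaged 100 or more in the group where they were higher. Per member the 3 nearest profiles were named, predicted genes left out. Symbols were matched to GENCODE M21 for positions and exon lengths, and to the RefSeq promoter table (GRCm38.p6), where 6 of 9 members were found. A group with no read was given a floor of 3 reads per library.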

Additional observations from a re-analysis of the deposited data

Results flagged for a closer look

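Among the 32 sets of values (8 complement genes in 4 groups), 10 had a highest library far from the others by Dixon's test. Its chance rate of about 1 in 20 holds for independent sets of normally distributed values. Here the values were untransformed counts, the genes share libraries, and some sets hold few reads (12 against 1 for Cfb in culture). The count of 10 therefore cannot be set against chance. In brain, C1qa was 100976.1 normalized counts in replicate 6, against 42672.6 in the next library. In blood day 5, C1qb was 1379.3 in replicate 6, against 813.4. In blood day 1, replicate 2 was the highest library for all 3 C1q genes, with 2164.1 for C1qa (next 367.7), 6532.7 for C1qb (next 1204.5) and 5189.0 for C1qc (next 608.7). In culture, replicate 5 was highest for C1qa at 62.1 (next 17.6), for C1qc at 160.3 (next 32.5) and for Cfb at 8.9 (next 1.8). Culture replicate 1 was highest for C3 at 299.7 (next 66.0), and culture replicate 4 for C3ar1 at 18.3 (next 3.7).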

How the results depend on the processing

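Over the alternatives, 583 of 624 member differences kept their direction and their side of the threshold, as did 535 of 552 with 1 library left out. Counts of members that moved by over 1.5 times were those higher in blood day 1 against culture in batch 2 only (4), lower in brain against blood day 5 in batch 1 only, in batch 2 only and with the closest libraries averaged (0 each, and 0 to 1 with 1 library left out), lower in brain against blood day 1 in batch 2 only (0), and higher in blood day 5 against blood day 1 with DESeq2 (1) and in batch 2 only (1). Smaller moves were 6 members higher in brain against culture with edgeR and in batch 1 only, 7 in blood day 5 against culture in each batch alone, 6 in batch 1 only and 7 with the libraries of both groups alone or the closest libraries averaged in blood day 1 against culture (8 in each before), and 4 in brain against blood day 1 in batch 1 only (5 before). The cause was not tested. Of the values that changed sign, Itgam was the 1 that had passed (brain against blood day 1, 0.44 in batch 2 only). In brain against blood day 5, C3 was 0.17 in batch 1 only, and C5ar1 was -0.21 at equal library totals, -0.17 with edgeR and -0.13 to 0.54 with 1 library left out. In brain against blood day 1, C3 was 0.07 in batch 1 only, and Cfb was -0.02 without the 4 libraries that stood apart. In blood day 5 against blood day 1, C1qa was -0.42 with edgeR, -0.57 with DESeq2 and -1.28 in batch 1 only, and C1qc was -0.66, -0.81 and -1.07 under the same 3. There C1qb was 0.18 at equal library totals, 1.41 in batch 2 only, 0.37 without the 4 libraries that stood apart and -0.43 to 0.57 with 1 library left out. C3ar1 was 0.11 at equal library totals, 1.47 in batch 2 only and -0.82 to 0.45 with 1 left out. C3 was -0.1 in batch 1 only and -0.03 to 0.74 with 1 left out, Cfb -0.93 in batch 2 only, -1.0 without the 4 and -0.4 to 0.94 with 1 left out, and Cfp 0.23 in batch 2 only. Among log2 ratios, C1qc over C1qb in brain against blood day 5 was 0.01 with the closest libraries averaged and -0.11 to 0.04 with 1 left out, and C1qc over C1qa in blood day 5 against blood day 1 was -0.03 to 0.1 with 1 left out. The median of all genes in brain against culture was 0.67, and 0.223 with edgeR, so member differences there stand on a shift of that size. It is not shown that replicate numbers pair libraries: same-numbered libraries correlated at -0.104 to 0.189 in 33 pairs, 2 of them over 0.1. In 18 of the 33 pairs the same-numbered library correlated highest among those of its group and batch. The replicate block kept every count of members, with 8 higher in brain against culture. Depth limits Cfb, C3ar1, C5ar1 and C1qa in culture, with 13, 32, 52 and 116 reads in all.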
